A study of Homo sapiens with 6 samples.

Results

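Keratins are the intermediate filament proteins of epithelial cells, and 10 of their genes were followed here in RKO cells, an established line from a colon carcinoma of poor differentiation, after TRIM21 was lowered by a short hairpin RNA. The members were selected by symbol, and from the counts of these libraries as the simple-epithelial keratins KRT7, KRT8, KRT18, KRT19, KRT20 and KRT23 and other keratins detected in the line, KRT10, KRT80, KRT81 and KRT86. They are 10 of 55 keratin genes among the 28278 rows of each count table. Of the members, 5 are type I (KRT10, KRT18, KRT19, KRT20 and KRT23) and 5 are type II (KRT7, KRT8, KRT80, KRT81 and KRT86). Their detection is therefore a description, and so is any count over them, since they were proposed with earlier results of these data known.

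A keratin filament is built from pairs of a type I (acidic) and a type II (basic or neutral) chain, and an unpaired chain is degraded, so cells usually hold the types in about equal amounts. KRT8 and KRT18 form the basic pair of simple epithelia such as the gut lining, with KRT19 as a further type I chain. KRT7 is a type II chain of ductal epithelia, KRT20 a type I chain of differentiated intestinal cells, KRT10 a type I chain of the upper epidermis, and KRT81 and KRT86 are hard keratins of the hair shaft.

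Total RNA depleted of ribosomal RNA was sequenced from 3 libraries of cells with a hairpin against TRIM21 (shTRIM21) and 3 of cells with a scrambled hairpin (shControl), which the labels also call wild type. Both groups were infected with lentivirus and selected with puromycin at 5 µg/ml from 36 h after infection for 2 to 3 weeks, so the controls share the virus and the drug. The titles call the 3 libraries of a group biological replicates, while the labels name no separate clones, infections or hairpin sequences. P-values therefore measure the spread between these libraries, which may come from cultures of a single stable line. A source field speaks of mouse tissue, whereas the organism is given as human and the rows carry human symbols.

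Library totals ran from 33499827 to 44466137 counts and, without 37 ribosomal RNA rows, from 27808151 to 29100459. Ribosomal RNA took 16.99% to 23.5% of counts in shTRIM21 and 14.7% to 36.9% in shControl, and leaving these rows out kept 6 members called lower and 1 higher (KRT8 at -0.44, KRT18 at -0.47 and KRT7 at -2.06 on the log2 scale). TRIM21 transcripts were lower in all 3 shTRIM21 libraries (271 to 299 counts against 343 to 459), a log2 fold change of -0.54 (SE 0.12; edgeR adjusted p = 0.00424), which was not called with library sizes alone (-0.34; edgeR adjusted p = 0.197). Of 15131 genes tested with edgeR's quasi-likelihood test, 1479 were called higher and 1667 lower in shTRIM21 at an adjusted p under 0.05. Higher genes made up 47.0% of calls with TMM scaling, 62.1% with upper-quartile factors and 93.0% with library sizes alone, where the median log2 fold change of all tested genes moved from 0.0054 to 0.22. Epithelial transcripts were present, with EPCAM at 198 and 180 CPM (counts scaled by library size; means of shTRIM21 and shControl), but 7 of 19 colon epithelium markers were listed at 0 in every library (CDX1, LGALS4, TFF3, FABP1, CEACAM5, CEACAM6 and PHGR1). Squamous keratinocyte markers summed to 1.35 to 1.68 CPM in shTRIM21 and 1.14 to 1.74 CPM in shControl, with 5 of 11 at 0 (KRT1, IVL, SPRR1B, SPRR3 and LORICRIN). Fibroblast markers summed to 10.5 to 11.1 CPM against 6.15 to 9.19 (DCN and LUM at 0), immune cell markers to 6.18 to 6.85 against 7.34 to 8.69 (CD3E and MS4A1 at 0) and endothelial markers to 0.343 to 0.773 against 0.490 to 0.773 (CDH5 at 0), with 0 genes of these lists called. Most of the fibroblast sum was COL1A1 alone (means of 10.2 CPM in shTRIM21 and 7.88 in shControl). Most of the immune sum was CD68 alone (6.08 and 7.52 CPM). The part of other cells in the results was not tested.

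How far reads can be told apart decides what each row measures, so 60 coding bases that end the central rod, among the most conserved stretches of the family, are printed for the type I members, whose differences set their rows apart. They were read 5′ to 3′ from GENCODE release 29 transcripts (GRCh38). Capitals mark bases that differ from KRT18.
KRT18: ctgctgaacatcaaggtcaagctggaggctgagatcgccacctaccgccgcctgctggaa
KRT19: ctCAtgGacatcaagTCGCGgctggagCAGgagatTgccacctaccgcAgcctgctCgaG
KRT23: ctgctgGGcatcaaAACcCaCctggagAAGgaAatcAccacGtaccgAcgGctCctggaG
KRT10: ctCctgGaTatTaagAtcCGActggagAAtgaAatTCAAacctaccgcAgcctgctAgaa
KRT20: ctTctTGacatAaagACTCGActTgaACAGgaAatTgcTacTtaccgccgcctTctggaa

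Each stretch lay within a single exon, at chr12:52952266-52952325 (plus strand) for KRT18, chr17:41523791-41523850 (minus) for KRT19, chr17:40925368-40925427 (minus) for KRT23, chr17:40819528-40819587 (minus) for KRT10 and chr17:40878159-40878218 (minus) for KRT20. Of the 60 bases 15 differed from KRT18 in KRT19, 17 in KRT23 and in KRT10, and 20 in KRT20. Over the whole coding sequence KRT81 and KRT86 were 90.4% identical, whereas KRT7 and KRT8 were 68.7% and KRT18 and KRT19 60.3% identical. Of the 50-base words of the KRT81 transcript, 44.6% also occur in transcripts of other genes, mostly KRT86, and for KRT86 the share was 40.5%. It was 41.3% for KRT8 and 31.8% for KRT18, in 36 and 43 other genes, those sharing the most words being the pseudogenes KRT8P3 and KRT18P11. KRT10, KRT20 and KRT23 had 0 shared words, and KRT7, KRT19 and KRT80 had 0.997%, 1.79% and 0.420%. How reads with several matches were counted is not given in the sources used here, so the rows of KRT81 and KRT86 are uncertain as separate genes, and those of KRT8 and KRT18 may lack or hold reads of their pseudogenes.

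The abundant simple-epithelial pair, KRT8 and KRT18, fell together in shTRIM21 by about the same fraction, and KRT19 fell with them. KRT7, KRT80 and KRT81, type II chains at far lower levels, fell much further, while KRT23 rose. Of the 9 members tested, 6 were called lower and 1 higher, where 11.0% and 9.77% of all tested genes were called in these directions. All libraries of one group lay above all of the other for 7 of these 9, against 37.7% of all tested genes. The median log2 fold change of the 9 was -0.44, and nothing is read from these shares, since the members were proposed with results known. KRT86 did not pass the filter on low counts, and KRT81, counted among the 6 and the 7, passed it only through the controls.

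**Figure D1:**
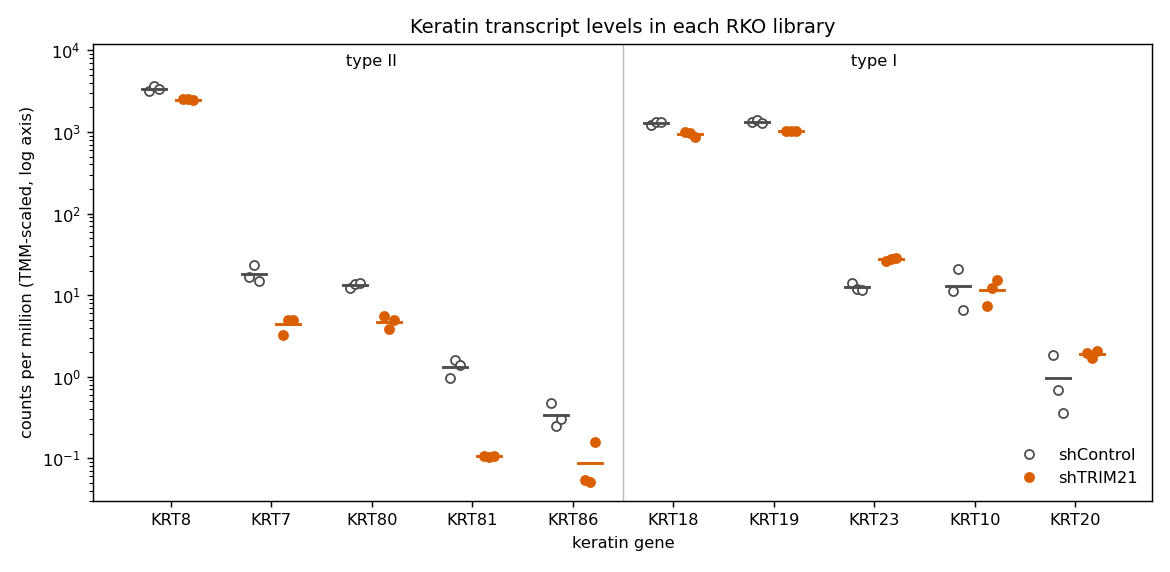
TMM-scaled CPM (log axis) of the 10 keratin genes in each library, with type II chains on the left and type I chains on the right. Points are libraries and horizontal lines are means of 3; KRT8, KRT18 and KRT19 stand at 873 CPM or above, and the groups overlap only for KRT10 and KRT20.

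KRT8 (NCBI gene 3856, chromosome 12, 52897191 to 52949860, GRCh38.p14) was the most abundant member, of rank 26 among all rows by mean CPM, not corrected for length. Its levels were 2553, 2507 and 2444 CPM in shTRIM21 and 3152, 3616 and 3382 CPM in shControl. Every shTRIM21 library lay below every control library, and the mean went from 3384 ± 232 to 2501 ± 54.8 CPM (SD, n = 3). On the log2 scale the difference was -0.44 (SE 0.080, 95% interval -0.61 to -0.27), so KRT8 fell by 26.1% (edgeR adjusted p = 0.00139).

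KRT18 (NCBI gene 3875, chromosome 12, 52948855 to 52952906), its type I partner and its neighbour on the chromosome, was at 1001, 958 and 873 CPM in shTRIM21 and 1230, 1337 and 1332 CPM in shControl. The groups did not overlap. The difference was -0.46 (SE 0.065, 95% interval -0.60 to -0.32) on the log2 scale, and KRT18 fell by 27.4% (edgeR adjusted p = 0.000179). The annotated spans of KRT8 and KRT18 overlap at their ends, and since the use of strand in counting is not given, reads there could fall to either row.

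KRT19 (NCBI gene 3880, chromosome 17, 41523617 to 41528308), the smallest keratin chain, which pairs with KRT7 and KRT8, was at 1042, 1033 and 1020 CPM in shTRIM21 and 1335, 1408 and 1278 CPM in shControl. Here too the groups did not overlap, and the shTRIM21 libraries differed little among themselves (1032 ± 11.1 CPM against 1340 ± 64.9 CPM; SD, n = 3). KRT19 fell by 23.0%, or -0.38 (SE 0.059) as a log2 fold change (edgeR adjusted p = 0.000396).

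The calls of these 3 abundant chains depend on scaling. With library sizes alone KRT8, KRT18 and KRT19 were still lower, at -0.23, -0.25 and -0.17 on the log2 scale, but were not called (edgeR adjusted p = 0.425, 0.344 and 0.534). Against the median of all tested genes under that scaling, 0.22, they lay lower by 0.45, 0.47 and 0.39, values near those with TMM factors. In bulk RNA, fewer cells that express a keratin and less keratin RNA per cell cannot be told apart.

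**Figure D2:**
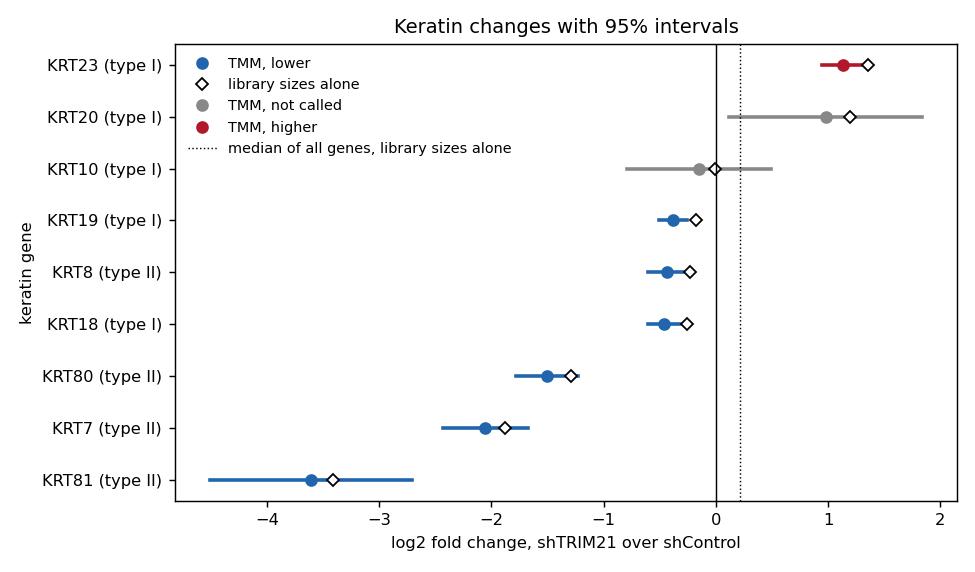
Log2 fold changes of the 9 tested keratin genes, shTRIM21 over shControl, with TMM factors (filled points with 95% intervals, coloured by call) and with library sizes alone (open diamonds). KRT81 at -3.61 and KRT7 at -2.06 lie furthest to the left and KRT23 at 1.14 is called higher; the dotted line marks the median of all genes with library sizes alone, 0.22.

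Among the scarcer type II chains, KRT7 (NCBI gene 3855, chromosome 12, 52233243 to 52255853) gave 121, 195 and 188 counts in shTRIM21 and 620, 863 and 542 in shControl. In CPM these were 3.22, 4.98 and 4.97 against 16.4, 23.5 and 14.96, with a wide gap between the groups. KRT7 was thus 4.16-fold lower, with a 95% interval of -2.43 to -1.68 around -2.06 (SE 0.18) on the log2 scale (edgeR adjusted p = 1.49e-06). KRT7-AS, an antisense RNA gene inside the KRT7 span, stood at 1.52 ± 0.218 CPM in shTRIM21 and 4.76 ± 0.422 CPM in shControl (SD, n = 3), lower by 3.12-fold (edgeR adjusted p = 1.82e-05). Without strand, reads of KRT7 and KRT7-AS cannot be told apart.

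KRT80 (NCBI gene 144501, chromosome 12, 52168996 to 52192014), a type II chain of many epithelia that lies near cell margins, was at 5.46, 3.80 and 4.89 CPM in shTRIM21 and 12.3, 13.7 and 14.2 CPM in shControl. The lowest control library was above the highest shTRIM21 library by more than the range of either group. KRT80 was 2.84-fold lower, -1.51 (SE 0.13) on the log2 scale (edgeR adjusted p = 1.45e-06). In RefSeq 0 other genes overlap KRT80, and its transcript shares few words with other transcripts.

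KRT81 (NCBI gene 3887, chromosome 12, 52285913 to 52291534) was low in controls and nearly gone in shTRIM21, with 4 counts in each shTRIM21 library against 36, 58 and 51 in shControl. Its mean level went from 1.31 ± 0.323 to 0.105 ± 0.00237 CPM (SD, n = 3). With equal counts the shTRIM21 SD comes from the scaling alone and does not show the counting error at 4 counts. KRT81 was at -3.61 (SE 0.42, 95% interval -4.50 to -2.71) on the log2 scale and was called (edgeR adjusted p = 2.95e-05). The gene passed the count filter only through the control libraries, so a difference was a condition of its being tested. KRT86 (NCBI gene 3892, chromosome 12, 52274645 to 52309163), whose span contains KRT81 on the opposite strand, had 2, 2 and 6 counts in shTRIM21 and 18, 9 and 11 in shControl. Summed over libraries the KRT86 ratio, shControl over shTRIM21, was 3.93, with an exact binomial 95% interval of 1.92 to 8.85 that covers counting error only. With no filter on low counts KRT86 was at -1.93 and not called (edgeR adjusted p = 0.0895). It passed the filter without shTRIM21 replicate 1, at -1.69 and not called (edgeR adjusted p = 0.120). Without shTRIM21 replicate 3, the shTRIM21 library with its highest count, it also passed and was called at -2.64 (edgeR adjusted p = 0.0299). In both of these fits KRT86 passed only through the controls, so a difference was again a condition of testing. With the KRT81 and KRT86 rows added together KRT81 with KRT86 was at -3.08 (edgeR adjusted p = 3.09e-05). This summed row also owes its passing of the filter to the controls, where both rows were higher, so its p-value is no separate support.

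KRT80, KRT7, KRT86 and KRT81 lie in this order of their starts at one end of the keratin cluster of chromosome 12, and KRT8 and KRT18 at the other end. Between them lie type II genes with few reads: KRT5 had at most 6 counts in any library and KRT6A at most 8. Just beyond KRT18, the translation factor gene EIF4B was at 803 ± 25.8 and 838 ± 25.3 CPM in shTRIM21 and shControl (SD, n = 3) and was not called (-0.06 on the log2 scale, SE 0.056; edgeR adjusted p = 0.473), with the sign turning under library sizes alone. The row MIR9898, which lies within the KRT8 span and may hold KRT8 reads, was 1.21-fold lower (edgeR adjusted p = 0.00774). It was not called with library sizes alone or with shControl replicate 2 as the only control (edgeR adjusted p = 0.832 and 0.151).

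KRT23 (NCBI gene 25984, chromosome 17, 40922700 to 40937646), a type I chain that has been described in colon cancers, was the member called higher. Its levels were 26.5, 27.4 and 28.9 CPM in shTRIM21 and 14.2, 11.8 and 11.6 CPM in shControl. All 3 shTRIM21 libraries lay above the highest control. KRT23 rose 2.20-fold, with 1.14 (SE 0.091) on the log2 scale and a 95% interval of 0.94 to 1.33 (edgeR adjusted p = 6.28e-07). KRT23 was called higher under all 16 alternatives, from 1.08 to 1.35 on the log2 scale.

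KRT20 (NCBI gene 54474, chromosome 17, 40875889 to 40885242), which lies next to KRT23, gave 73, 67 and 77 counts in shTRIM21 and 69, 25 and 13 in shControl. Control replicate 1 stood with the shTRIM21 libraries, so the groups overlapped in CPM (1.71 to 2.03 against 0.359 to 1.83). KRT20 was at 0.98 (SE 0.40, 95% interval 0.12 to 1.84) on the log2 scale and was not called (edgeR adjusted p = 0.0984). Without shControl replicate 1 it was 1.86 and called (edgeR adjusted p = 0.00342). It was also called at 1.20 with library sizes alone, at 0.98 with no filter on low counts, at 1.27 with limma and voom, at 1.15 with the replicate number as a block and at 1.47 with shControl replicate 2 as the only control. In those 5 fits the adjusted p of edgeR or limma ran from 0.00354 to 0.038. Without shControl replicate 3 KRT20 was at 0.58 and without shControl replicate 2 at 0.78, neither of them called (edgeR adjusted p = 0.288 and 0.253).

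KRT10 (NCBI gene 3858, chromosome 17, 40818117 to 40822614) varied more within groups than between them. It was at 7.41, 12.3 and 15.3 CPM in shTRIM21 and 11.3, 20.9 and 6.57 CPM in shControl. KRT10 was at -0.15 (SE 0.30, 95% interval -0.79 to 0.50) on the log2 scale (edgeR adjusted p = 0.773), and this turned to 0.09 without shTRIM21 replicate 1 and 0.38 without shControl replicate 2. The interval leaves room for a change of KRT10 in either direction.

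Levels were next compared between genes, as CPM per kilobase of the transcript with the longest coding sequence. In shControl the order was KRT8 (2006 ± 138; SD, n = 3), KRT19 (964 ± 46.7), KRT18 (832 ± 38.7), KRT7 (10.4 ± 2.60), KRT23 (6.32 ± 0.721), KRT10 (6.09 ± 3.44), KRT80 (3.47 ± 0.264), KRT81 (0.681 ± 0.167), KRT20 (0.550 ± 0.445) and KRT86 (0.154 ± 0.0544). From KRT8 to KRT7 each gene stood clear of the next, whereas the libraries of KRT23 and KRT10, of KRT10 and KRT80, of KRT81 and KRT20 and of KRT20 and KRT86 overlapped. The place of KRT8 depends on the length used, since the union of all its exons is 4581 bases against 1687. For KRT19 both lengths are 1390 bases. In shTRIM21 KRT23 came next after KRT18, at 13.9 ± 0.598 CPM per kilobase, then KRT10 at 5.49 ± 1.87 and KRT7 at 2.50 ± 0.575 (SD, n = 3), without overlap. KRT80 at 1.22 ± 0.218 and KRT20 at 1.09 ± 0.0963 overlapped there, as did KRT81 and KRT86.

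Both types were lower in sum in shTRIM21, and the ranges of their balance overlapped between the groups. Type II transcripts summed to 2020 ± 140 CPM per kilobase in shControl and 1486 ± 32.1 in shTRIM21, and type I transcripts to 1809 ± 66.2 and 1367 ± 47.2 (SD, n = 3). The type II share was 51.7%, 53.4% and 53.1% in the control libraries and 51.8%, 52.0% and 52.5% in the shTRIM21 libraries. These ranges overlap, and the means were 52.7% and 52.1%, with SDs of 0.942 and 0.333 percentage points (n = 3). They are shares of RNA, and the amounts of the protein chains were not measured. The log2 ratio of KRT8 to KRT18 was 1.25, 1.32 and 1.23 in shControl and 1.24, 1.28 and 1.37 in shTRIM21, again with overlap. The ratio of KRT18 to KRT19 ran from -0.29 to -0.11 in shControl and from -0.39 to -0.23 in shTRIM21 on the log2 scale. The share itself depends on the length used, since with the union of all exons, which lengthens KRT8 from 1687 to 4581 bases, it was 31.7% and 30.9%.

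**Figure D3:**
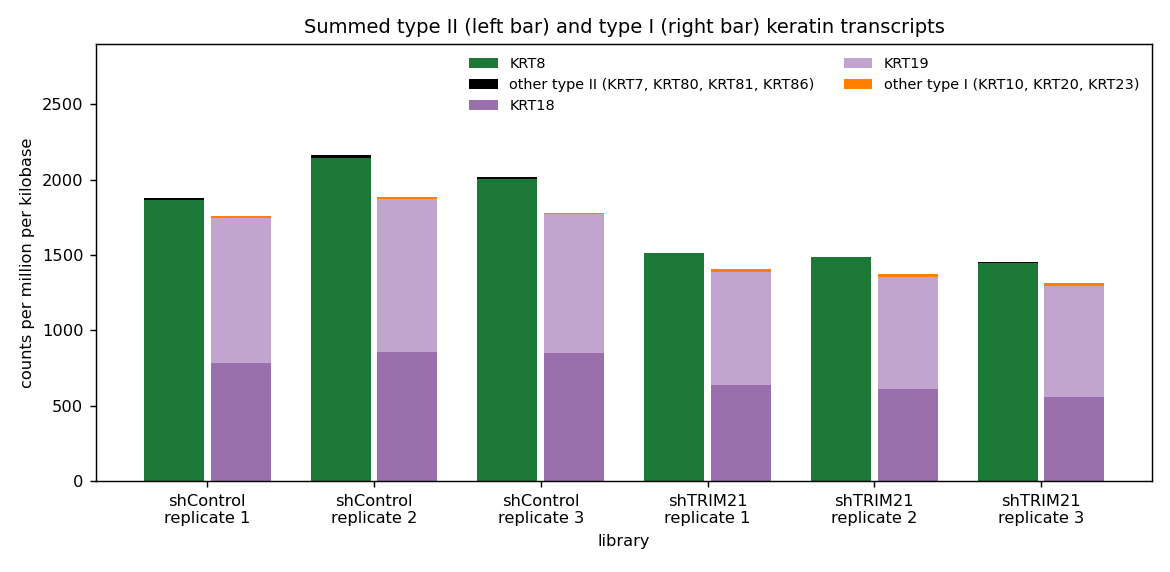
Summed CPM per kilobase of type II (left bar) and type I (right bar) keratin transcripts in each library, stacked by gene. KRT8 makes up nearly all of each type II bar, KRT18 and KRT19 nearly all of each type I bar, and both bars are lower in the 3 shTRIM21 libraries.

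KRT8 alone made up 99.3% of the type II sum in shControl and 99.7% in shTRIM21, and KRT18 with KRT19 made up 99.3% and 98.5% of the type I sum. The scarce chains therefore hardly weigh on the balance, yet their makeup differed. KRT7, KRT80, KRT81 and KRT86 together went from 14.7 ± 2.71 to 3.82 ± 0.451 CPM per kilobase, and KRT10, KRT20 and KRT23 together from 13.0 ± 3.56 to 20.5 ± 2.48 (SD, n = 3). KRT15, a further scarce type I chain that is no member and fell, is not in this sum. With KRT15 added the type I sum was 16.3 ± 3.50 in shControl and 22.1 ± 2.41 in shTRIM21 per kilobase of transcript (SD, n = 3), with the nearest libraries at 19.6 and 19.7. The KRT15 transcript used for this is long (5237 bases, of which 1368 are coding). Per kilobase of coding sequence the libraries overlapped, at 26.5 to 34.9 in shControl and 33.4 to 39.3 in shTRIM21. In controls the scarce type II sum ranged from 13.1 to 17.9 and the scarce type I sum from 9.15 to 16.2, so that they overlapped. In shTRIM21 the scarce type II sum (3.33 to 4.22) lay far below the scarce type I sum (17.9 to 22.9). KRT7 alone was 0.513% of type II transcripts in shControl and 0.169% in shTRIM21.

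**Figure D4:**
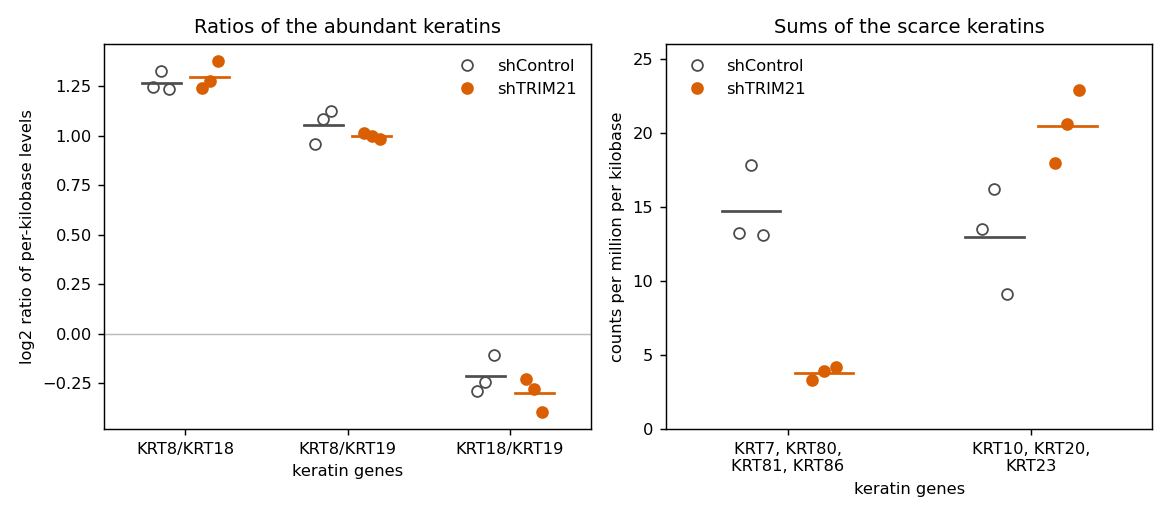
Left, log2 ratios of the per-kilobase levels of KRT8, KRT18 and KRT19 in each library, which overlap between groups for each pair. Right, summed per-kilobase levels of the scarce type II chains, lower in all shTRIM21 libraries (3.33 to 4.22), and of the scarce type I members KRT10, KRT20 and KRT23, without KRT15, higher in all of them (17.9 to 22.9).

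KRT8, KRT18 and KRT19, which can pair with the simple-epithelial chains, were abundant. The epidermal partner of KRT10 and the hair partners of KRT81 and KRT86 were scarce or listed at 0. Whether KRT10, KRT81 or KRT86 pair with the abundant chains was not tested. KRT1, the partner of KRT10 in epidermis, was listed at 0 in all libraries. Among the type I hair keratins that could pair with KRT81 and KRT86, KRT32 alone passed the filter, at 22 to 49 counts a library (1.33-fold higher and not called; edgeR adjusted p = 0.396). KRT31 had 1 to 8 counts and KRT38 0 to 18.

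Of the 45 keratin genes that are no members, 39 stayed under 10 counts in every library and 5 were tested. KRT15, a type I chain of basal cells that lies next to KRT19, was among them and was the only one called: its levels were 9.17, 8.50 and 8.51 CPM in shTRIM21 and 15.8, 17.8 and 18.2 CPM in shControl. The KRT15 groups did not overlap, and it was 1.98-fold lower (-0.99 on the log2 scale, SE 0.095; edgeR adjusted p = 4.40e-06). KRT222, KRT13 and KRT16 were at 0.27 (SE 0.15), -0.04 (SE 0.31) and -0.78 (SE 0.63) on the log2 scale. None of them was called (edgeR adjusted p = 0.227, 0.946 and 0.414). KRT13 kept its sign in 9 of 16 alternatives. It turned under upper-quartile factors, library sizes alone and limma with voom, and in several fits without a single library.

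Transcripts of keratin linkers and binding partners moved both ways. Of 21 tested linkers and binding partners of keratins, 5 were called higher and 6 lower, where 9.77% and 11.0% of all tested genes were called in these directions, with a median log2 fold change of 0.015 against 0.0054 over all tested genes. The epiplakin gene EPPK1 was at 312 ± 61.2 CPM in shTRIM21 and 159 ± 11.8 CPM in shControl (SD, n = 3), 1.96-fold higher (edgeR adjusted p = 1.05e-05), and periplakin, PPL, rose by 0.50 (SE 0.070). The integrin gene ITGB4, whose product anchors keratins at hemidesmosomes, fell by 0.53 (SE 0.060) and the spectraplakin gene MACF1 by 0.65 (SE 0.068). Plectin, PLEC, named after its values were seen because it is the main hemidesmosome linker of keratins, fell by 0.33 (SE 0.060, edgeR adjusted p = 0.00145). DST, of the same list and likewise named afterwards, was at 0.14 (SE 0.065) with overlapping groups and was not called (edgeR adjusted p = 0.145). The falls of ITGB4 and MACF1 were not called with library sizes alone (edgeR adjusted p = 0.208 and 0.0569), and neither was that of PLEC (edgeR adjusted p = 0.705).

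Other intermediate filament genes also moved both ways, 3 higher and 3 lower of 10 tested (all tested genes: 9.77% and 11.0%), with a median of -0.024. Vimentin, VIM, the mesenchymal filament, went from 5.29 ± 0.149 to 2.52 ± 0.596 CPM (SD, n = 3) and by -1.07 (SE 0.18) on the log2 scale (edgeR adjusted p = 0.000705). The nuclear lamin genes LMNA and LMNB2 changed by -0.38 (SE 0.052) and -0.22 (SE 0.052), calls that were lost with library sizes alone (edgeR adjusted p = 0.539 and 0.98). Nestin, NES, rose by 0.39 (SE 0.075; edgeR adjusted p = 0.00212), which was not called with shControl replicate 2 as the only control (edgeR adjusted p = 0.0569).

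Of 26 tested transcription factors tied to keratin or epithelial genes, 5 were called higher and 8 lower (all tested genes: 9.77% and 11.0%), with a median of -0.10. The ETS-family gene EHF fell by 0.83 (SE 0.057; edgeR adjusted p = 1.50e-07), from 76.4 ± 1.11 to 42.9 ± 1.65 CPM (SD, n = 3). The AP-1 subunit gene FOSL1 and the Krüppel-like factor gene KLF5 changed by -0.50 (SE 0.062) and -0.39 (SE 0.062), not called with library sizes alone (edgeR adjusted p = 0.241 and 0.448). ETS2 rose by 0.49 (SE 0.061; edgeR adjusted p = 5.10e-05). Among the colon epithelium markers outside the keratins, 1 of the tested genes was called: the E-cadherin gene CDH1 rose from 41.8 ± 2.22 to 62.2 ± 4.53 CPM (SD, n = 3; edgeR adjusted p = 3.31e-05), while KRT8, KRT18 and KRT19 fell.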

How the data were processed

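Each library came as whole-number counts by gene symbol over 28278 rows, which the authors deposited unscaled. The submitters' processing notes name hg38, TopHat2, limma 3.52.2 and edgeR 3.38.1, without saying what each did. The sources used here give no counting program, annotation, strand setting or handling of multiple matches.

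Sample titles gave the groups and the replicate numbers. Counts were analysed with R 4.3.3 and edgeR 4.0.16: filterByExpr (minimum count 10, minimum total 15) left 15131 genes, TMM factors scaled the libraries, and the quasi-likelihood F test compared the groups of 3, with Benjamini-Hochberg adjustment over all tested genes and a threshold of 0.05. SEs are the log2 fold change over the square root of F. CPM uses TMM-scaled library sizes. The test was checked on simulated data. Alternatives were RLE, upper-quartile and no scaling factors, no filter, ribosomal RNA rows left out, DESeq2 1.42.0, limma 3.58.1 with voom, a replicate block, each library left out, shControl replicates 1 and 3 left out together, and KRT81 and KRT86 summed. The sum of scarce type I keratins with KRT15 was added after seeing the data.

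The members, gene lists and tests were chosen with earlier results of these data known. Named were all members, other tested keratins, tested overlapping or adjacent genes, and per list up to 4 called genes with the smallest p-values. Gene positions come from RefSeq (GRCh38.p14), and transcripts with their lengths from GENCODE release 29 (the authors' annotation may be another), with a length for 54 of 55 keratin genes. Depth limits KRT81 and KRT86 most. Sequences of the type II members are not reported here.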

Additional observations from a re-analysis of the deposited data

How the results depend on the processing

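Over the alternatives, 133 of 144 values of the 9 tested members kept direction and side of the threshold. KRT7, KRT80, KRT81 and KRT23 did so in all 16 each. KRT81 passed the main filter only through the controls, so its 16 values are no separate support. KRT8, KRT18 and KRT19 did so in all but library sizes alone. That setting called 3 members lower and 2 higher, where 138 and 1831 of all 15131 tested genes were called in these directions. It called 1969 genes in all against 3146 with TMM factors, and the cause was not tested. Also 2 members were called higher, KRT20 being the added one, with no filter, with limma and voom, with the replicate block and with shControl replicate 2 as the only control, the last of which called 1958 genes. Leaving out a single library gave 1844 (without shTRIM21 replicate 2) to 2592 genes, 6 to 7 members lower and 1 to 2 higher. KRT10 ran from -0.47 to 0.38 and KRT13 from -0.31 to 0.11 on the log2 scale when a library was left out. KRT13 was at 0.0018 with upper-quartile factors, 0.17 with library sizes alone and 0.020 with limma and voom, EIF4B at 0.15 with library sizes alone, and EPCAM at -0.037 with shControl replicate 2 as the only control. The replicate block called 2905 genes, with 6 members lower. Same-numbered libraries did not deviate together (correlations over genes of -0.012, -0.012 and -0.074), and 0 libraries correlated best with their own number. No pairing by number thus showed in the counts, but such deviations cannot tell how the libraries were handled. The difference in type II share, -0.63 percentage points, ran from -1.16 to -0.28 without single libraries, and the KRT8 to KRT18 difference, 0.029, from -0.0099 to 0.057.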

Other observations

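Genes of keratin-associated proteins, which embed hard keratins in the hair shaft, were nearly silent: 60 of 94 rows were listed at 0 and 5 passed the filter. These genes were named after their values were seen. KRTAP2-3 went from 8.38 ± 2.37 to 4.23 ± 0.252 CPM (SD, n = 3), a log2 fold change of -0.99 (SE 0.17; edgeR adjusted p = 0.000984). KRTAP3-1 changed by -2.09 (SE 0.45; edgeR adjusted p = 0.00423), a call lost with shControl replicate 2 as the only control, on 3 to 8 counts a library in shTRIM21 and 22 to 27 in shControl. It passed the filter only through the controls, so a difference was a condition of its being tested, as for KRTAP2-1 and KRTAP2-2. KRTAP2-4 changed by -1.08 (SE 0.36; edgeR adjusted p = 0.0429, over the alternatives 0.0246 to 0.175) and was not called in 11 of 16 alternatives. KRTAP2-1 and KRTAP2-2 were at -1.34 and -1.07 and not called (edgeR adjusted p = 0.0522 and 0.0889). Genes of the KRTAP2 group are near-copies of each other, so their rows are uncertain as separate genes.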
